A study of Mus musculus with 8 samples.

Results

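The genes described here encode parts of the T cell receptor (TCR) complex, its CD8 coreceptor and the first signalling proteins behind it. They are the CD3 chains Cd3d, Cd3e, Cd3g and Cd247, the coreceptor chains Cd8a and Cd8b1, the kinases Lck and Zap70, the adaptor Lat and the receptor Cd5. They were chosen by name, matched by exact symbol, and all 10 were found among the 24421 genes of the deposited count tables. The TCR alpha and beta chains, which bind the ligand, are not among these 10 and were not examined. The data are 3' RNA-seq libraries from mouse CD8+ T cells, 4 libraries from LKB1-deficient cells and 4 from control cells whose genotype is labelled LKB1 wild type. In both groups naive cells had been stimulated for 48 hours on plates coated with antibodies against CD3 and CD28, so the receptor described here was itself engaged in every library. LKB1 is a kinase, encoded by Stk11, that activates AMPK and related kinases. How LKB1 was removed, and whether replicates came from separate animals, is not given in the sources used here; p-values therefore measure only the spread between these samples, which may be technical.

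The TCR recognises peptide on MHC molecules but has no enzyme activity and depends on the CD3 chains to pass the signal inside. The delta and gamma chains each pair with an epsilon chain, and the zeta chain, encoded by Cd247, pairs with itself. The cytoplasmic tails of these chains carry tyrosine motifs that LCK, brought in by CD8, phosphorylates. ZAP70 then docks on the motifs and phosphorylates LAT, on which the downstream complexes assemble, and CD5 dampens the signal. In T cells stimulated through CD3, surface TCR is taken in and replaced.

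The 3 CD3 genes on chromosome 9 are neighbours, and the region just upstream of each is shown. In the GENCODE vM21 annotation of GRCm38 (mm10), Cd3g lies on the minus strand at chr9:44969572-44980431, Cd3d on the plus strand at chr9:44981786-44987339, and Cd3e on the minus strand at chr9:44998740-45009627. Cd3g and Cd3d thus start 1355 bases apart and run away from each other, while the 3' end of Cd3d faces that of Cd3e across 11401 bases. The windows below, from RefSeq on GRCm38.p6, run from 250 bases before to 50 bases after the annotated start and are written 5' to 3' on the gene's own strand; they lie at chr9:44981536-44981835 for Cd3d, chr9:44980382-44980681 for Cd3g and chr9:45009562-45009861 for Cd3e. Capitals mark the letters AGGAAG, a core bound by ETS factors, and AGATAA, a core bound by GATA factors, on either strand.
Cd3d: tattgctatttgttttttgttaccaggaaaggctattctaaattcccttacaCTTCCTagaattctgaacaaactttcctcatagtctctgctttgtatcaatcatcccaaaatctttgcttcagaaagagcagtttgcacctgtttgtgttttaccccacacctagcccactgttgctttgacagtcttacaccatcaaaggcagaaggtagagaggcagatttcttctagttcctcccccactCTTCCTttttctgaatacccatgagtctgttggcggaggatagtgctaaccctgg
Cd3g: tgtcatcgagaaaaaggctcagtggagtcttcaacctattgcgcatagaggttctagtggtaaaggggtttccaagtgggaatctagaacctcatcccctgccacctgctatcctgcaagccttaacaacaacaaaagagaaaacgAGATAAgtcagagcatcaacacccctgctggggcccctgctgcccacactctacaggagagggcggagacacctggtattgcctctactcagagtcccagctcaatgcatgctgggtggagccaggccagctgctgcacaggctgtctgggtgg
Cd3e: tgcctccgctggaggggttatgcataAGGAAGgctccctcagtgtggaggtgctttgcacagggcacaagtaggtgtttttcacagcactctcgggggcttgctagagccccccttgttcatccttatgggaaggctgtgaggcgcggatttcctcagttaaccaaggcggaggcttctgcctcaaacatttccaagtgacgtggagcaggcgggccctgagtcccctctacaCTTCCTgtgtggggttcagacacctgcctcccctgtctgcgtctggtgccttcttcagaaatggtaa

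The ETS letters occurred at 2 places in the Cd3d window, at 2 in the Cd3e window and nowhere in the Cd3g window. They are common letters, found in 35.4% of the 32817 promoter windows of this length. The GATA letters occurred once, in the Cd3g window, and in 11.2% of all windows. The RUNX core TGTGGT, present in 16.8% of all windows on either strand, was in none of the 3, and the E-box letters CANNTG, present in 72.3%, occurred once in the Cd3d window, 4 times in the Cd3g window and 2 times in the Cd3e window, with no overlap with the capitals. A match is a description of the letters and not of a bound site, and any link to the transcript levels was not tested. Of the 10 genes, 9 had a window in the table; Cd8b1 had none.

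Gene counts came to 3454388 to 6356125 in LKB1-deficient libraries and 7090252 to 12211930 in control libraries. The 10 genes were well covered, with 270 to 5279 counts per gene and LKB1-deficient library and 503 to 16171 per gene and control library. Counts can include PCR copies, so their size alone does not give the counting error. Stk11 was at 76.5, 70.8, 107 and 64.4 CPM (gene counts scaled to a common library size) in LKB1-deficient replicates 1 to 4, against 101, 67.8, 82 and 77 CPM in control replicates 1 to 4; the labels do not say which part of the gene was removed, so 3' counts do not check the genotype. All libraries carried T cell transcripts, and the T and CD8 T cell marker list, which holds some of the 10 genes, summed to 8461 to 12292 CPM in LKB1-deficient and 9062 to 12779 CPM in control libraries, with 3 of 12 tested genes lower (Cd3d, Cd3g and Cd8a, all among the 10) and 0 higher. The other 6 of that list that are not among the 10, Cd2, Thy1, Gzmb, Prf1, Nkg7 and Ccl5, did not pass, and Gzmb, a granule protease of cytotoxic T cells, made up the largest share of the sum in every library. Thy1, a surface protein of T cells, averaged 1170 ± 68.0 and 1043 ± 98.8 CPM and Cd2, an adhesion receptor, 250.2 ± 29.4 and 212 ± 14.7 CPM in LKB1-deficient and control cells (SD, n = 4 each), and neither passed the test. Cd4 stayed at or under 1.17 CPM in every library. Summed markers of B cells (4.95 to 10.7 CPM in LKB1-deficient, 7.39 to 13.1 CPM in control libraries) and myeloid cells (5.35 to 10.7 and 6.24 to 8.04 CPM) were low, with the B cell gene Pax5 and the neutrophil gene S100a9 at 0; of these lists the one tested B cell gene, Cd79b, was lower in LKB1-deficient cells, and the one tested myeloid gene, Cd68, did not pass. The marker list of mast cells and basophils summed to 15 to 42.3 CPM in LKB1-deficient and 9.22 to 12.3 CPM in control libraries, and its protease gene Mcpt4 was at 0. Of its 5 tested genes 2 were higher in LKB1-deficient cells, Il1rl1 and Gata2, and Kit, Mcpt8 and Hdc did not pass. Il1rl1 was the largest part of the sum in each LKB1-deficient library, and the groups overlapped in Gata2. The list of gamma-delta T and NK cell markers summed to 91.6 to 170 CPM and 74 to 120 CPM. Most of it came from Eomes, which CD8 T cells also express, and none of its 3 tested genes passed. Only 8 of its 12 listed genes were found by symbol. The gamma-delta receptor genes Trdc, Tcrg-C1, Tcrg-C2 and Tcrg-C4 were not found, so the sum says little on gamma-delta T cells. The list of CD4 T cell markers summed to 16.2 to 28.4 CPM and 11.1 to 16.6 CPM, with 1 of 3 tested genes higher (Il21), and the erythroid list to at most 0.27 and 0.0812 CPM, with 4 of its 5 genes at 0. The part of these other cells in the results below was not tested.

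In LKB1-deficient cells 4 of the 10 transcripts fell: Cd3d, Cd3g, Cd8a and Lat. None rose (0 of 10 with edgeR, DESeq2 and limma-voom), and at an unadjusted p under 0.05 the edgeR count was 6 of 10, all with lower values, against 4082 of all 10396 tested genes in either direction. The other 6, among them both kinases and the zeta and epsilon chains, did not pass the test. Across all 10396 genes tested, 10.1% fell, 12.4% rose and 22.5% changed in either direction at an adjusted p of 0.05 (edgeR quasi-likelihood test, Benjamini-Hochberg adjustment over all tested genes, used throughout). Of the 10 log2 fold changes 9 were below 0, with a median of -0.46 against 0.00 over all tested genes, and they ran from -1.12 for Cd3d to 0.32 for Cd3e. In 4 of the 10 genes (Cd3d, Cd8a, Cd8b1 and Lat) the groups did not overlap, all 4 lower in LKB1-deficient cells, against 26.1% of all tested genes without overlap in either direction, 14.1% lower and 12.0% higher. With single libraries left out, the count of 4 calls became 2 without LKB1-deficient replicate 2 or 4 or control replicate 1 or 3. Together the 10 genes took 0.211% to 0.371% of all gene counts in LKB1-deficient libraries, against 0.472% to 0.519% in control libraries. In bulk samples fewer cells that carry a transcript and less of it per cell cannot be told apart.

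**Figure D1:**
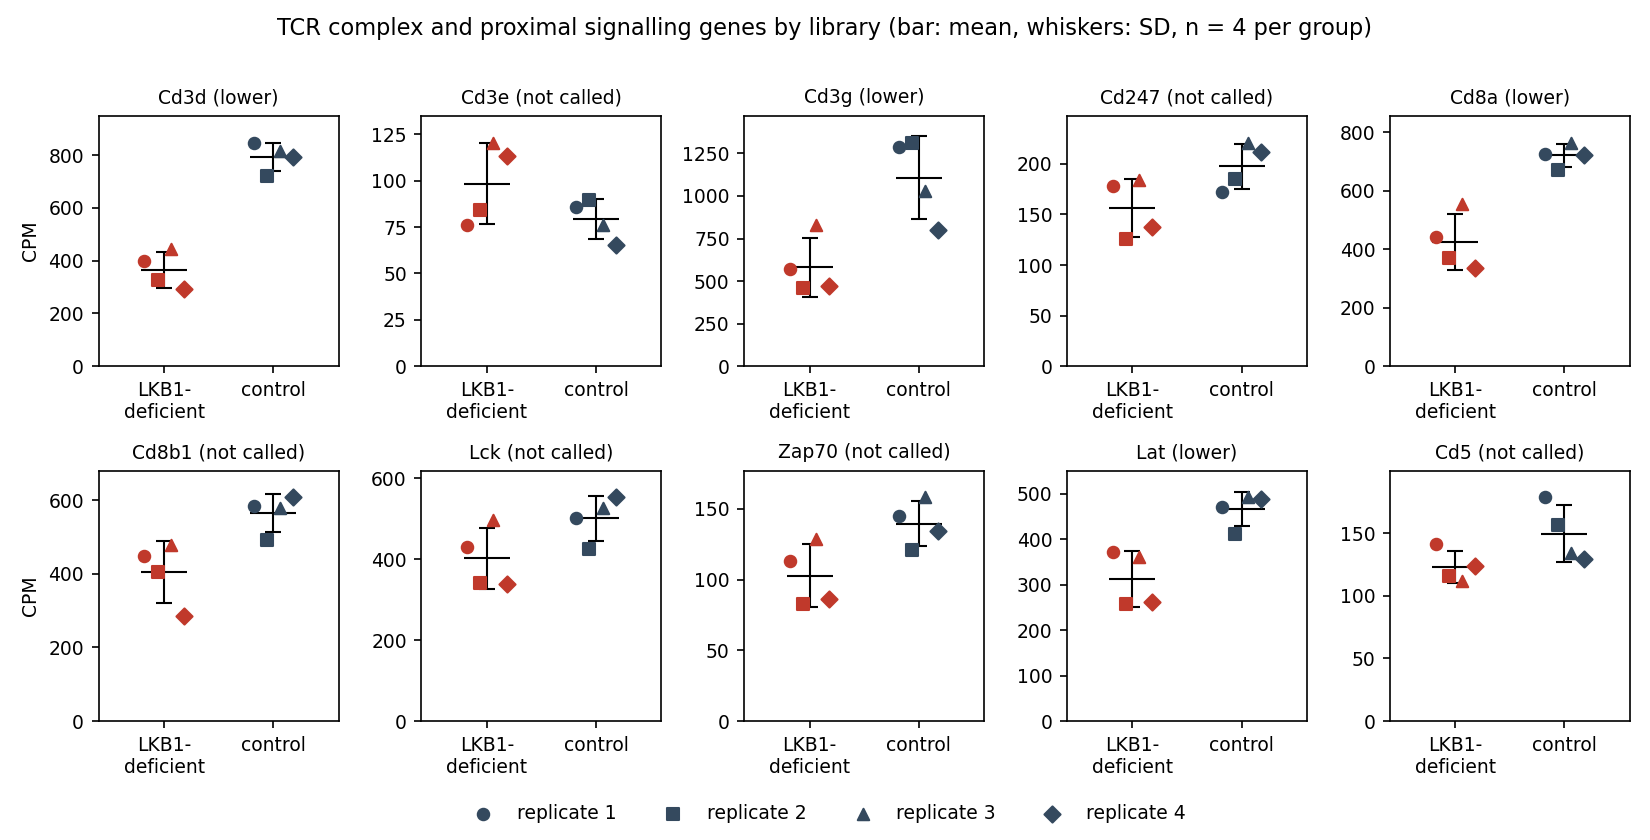
CPM of each gene (vertical axis, from 0, with its own scale in each panel) in LKB1-deficient and control libraries; symbols mark replicates, bars the mean and whiskers the SD. Cd3d, Cd8a, Cd8b1 and Lat of every LKB1-deficient library lie under the lowest control value, whereas Cd3e values of the groups overlap.

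Cd3d, the delta chain, showed the largest fall of the 10. It was at 400, 328, 444 and 294 CPM in LKB1-deficient replicates 1 to 4, against 848, 722, 815 and 793 CPM in control replicates 1 to 4. Every LKB1-deficient library thus lay well below the lowest control library. The means were 367 ± 68.1 CPM in LKB1-deficient cells and 794 ± 53.5 CPM in control cells (SD, n = 4 each), 2.17-fold lower, with a log2 fold change of -1.12 ± 0.16 (approximate SE) and an adjusted p of 0.00385, the 103rd smallest p of all genes tested. The call held in each of the 21 processing alternatives, with log2 fold changes from -1.26 to -0.91.

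Cd3g, the gamma chain and the divergent neighbour of Cd3d, also fell. LKB1-deficient replicates 1 to 4 gave 568, 461, 831 and 469 CPM, against 1289, 1314, 1031 and 798 CPM in control replicates 1 to 4. The groups touch, since LKB1-deficient replicate 3 lay above control replicate 4. The difference was 1.9-fold (log2 fold change -0.93 ± 0.24, adjusted p = 0.0224). Leaving out 1 library moved it past the threshold for LKB1-deficient replicate 2 (adjusted p = 0.0646) and 4 (adjusted p = 0.0681) and for control replicate 1 (adjusted p = 0.0505) and 3 (adjusted p = 0.0501), as did leaving out the first 2 of these together (adjusted p = 0.184). In replicates 2 to 4 alone, whose sample identifiers start with EU, its log2 fold change was -0.84 (adjusted p = 0.076).

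Cd3e, the epsilon chain that pairs with both of these, was the only one of the 10 with a value above 0. It was at 76, 84.2, 121 and 113 CPM in LKB1-deficient replicates 1 to 4, against 85.9, 89.4, 76 and 65.3 CPM in control replicates 1 to 4. LKB1-deficient replicates 3 and 4 exceeded all control libraries and the other replicates did not. The log2 fold change was 0.32 ± 0.18 (adjusted p = 0.202), and its sign was positive in all 21 alternatives. The stricter threshold among these leaves the fold change as it is. The annotation places an antisense transcript, Gm48719, and a second unclassified transcript on the same strand, Gm48720, within Cd3e, and whether counting used strand is not given in the sources used here.

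Cd247, the zeta chain, lies on chromosome 1 (chr1:165788681-165877277, plus strand) and overlaps Pou2f1 on the opposite strand. Its CPM was 178, 126, 184 and 138 in LKB1-deficient replicates 1 to 4, against 173, 185, 221 and 211 in control replicates 1 to 4. LKB1-deficient replicates 2 and 4 were the lowest libraries, while replicates 1 and 3 lay among the controls. The log2 fold change of -0.34 ± 0.16 did not pass (adjusted p = 0.144).

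Because a ratio of 2 transcripts within a library does not depend on scaling, 3 ratios were tested with an exact two-sided permutation test over the 8 libraries, whose smallest possible p is 0.0286 and whose p-values were adjusted over the 3. With this adjustment a single ratio cannot pass alone, as its smallest possible adjusted p is then 0.0857. The log2 ratio of Cd247 to Cd3e was 1.23, 0.58, 0.61 and 0.29 in LKB1-deficient replicates 1 to 4, against 1.01, 1.05, 1.54 and 1.69 in control replicates 1 to 4. It averaged 0.67 ± 0.40 in LKB1-deficient and 1.32 ± 0.34 in control libraries, a difference of -0.65 that did not pass (exact permutation p = 0.0857, adjusted p = 0.114). Without LKB1-deficient replicate 1, the LKB1-deficient library in which the zeta transcript stood highest relative to epsilon, it was -0.83 (exact permutation p = 0.0286, adjusted p = 0.0429), and without both LKB1-deficient replicates 2 and 4 it was -0.41.

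The imbalance between the delta and epsilon transcripts was picked after the values were seen and is given without a test. The log2 ratio of Cd3d to Cd3e was 2.39, 1.96, 1.88 and 1.37 in LKB1-deficient replicates 1 to 4, against 3.30, 3.01, 3.42 and 3.60 in control replicates 1 to 4. The groups did not overlap, and the mean difference of -1.43 corresponds to a ratio 2.7-fold lower in LKB1-deficient libraries. For Cd3g to Cd3e the mean difference was -1.24, again with no overlap. For Cd3g to Cd3d, the divergent pair, the means were 0.64 ± 0.19 in LKB1-deficient and 0.45 ± 0.37 in control libraries (log2 ratio, SD, n = 4 each), and the groups overlapped. The delta and gamma transcripts were thus both lower relative to epsilon, and the mean log2 ratio of gamma to delta differed by 0.19. Both comparisons with epsilon share the Cd3e counts, and other annotated transcripts lie within that gene.

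**Figure D2:**
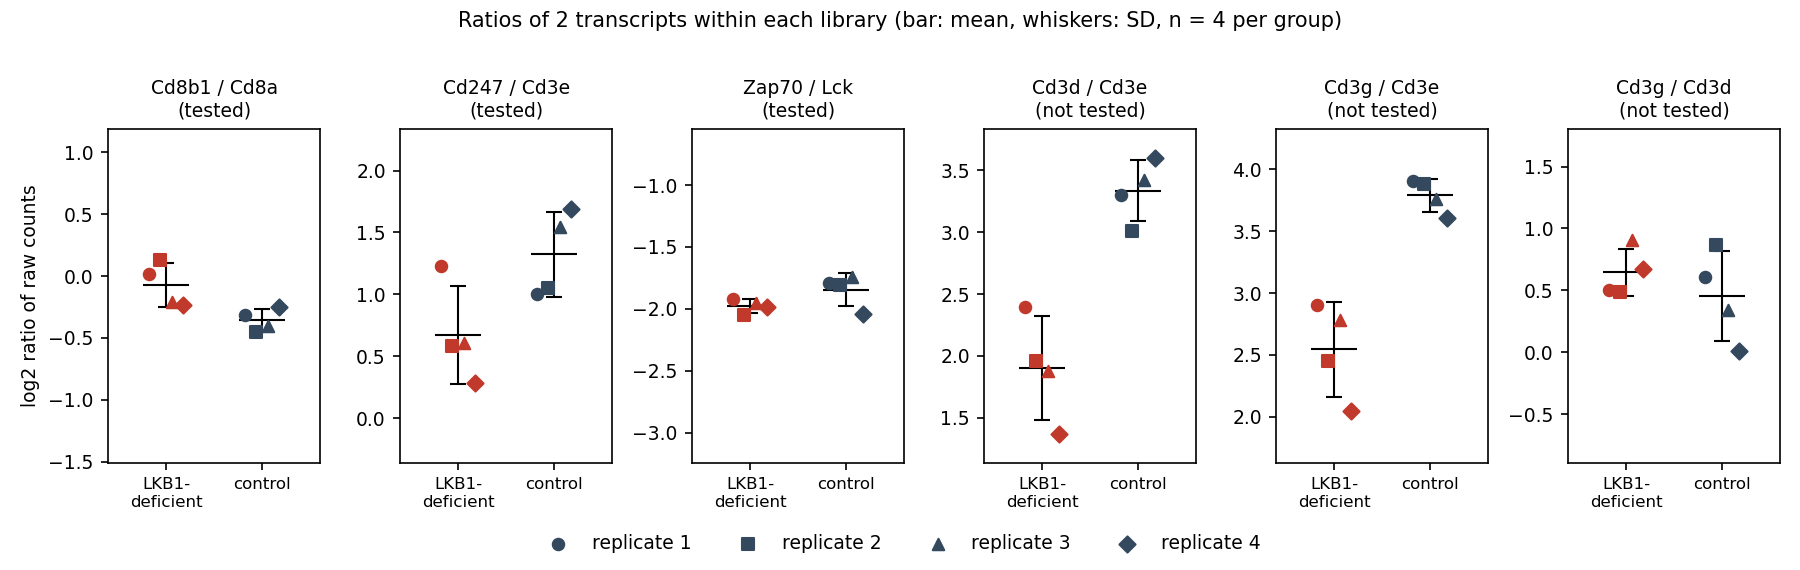
Log2 ratios of raw counts of 2 genes within each library (vertical axes of equal span), with LKB1-deficient libraries left of control libraries; bars give the mean and whiskers the SD of 4 libraries. The Cd3d to Cd3e and Cd3g to Cd3e ratios separate the groups, by -1.43 and -1.24 on average, and the Cd3g to Cd3d ratio does not.

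Both chains of the CD8 coreceptor, which binds MHC class I and carries LCK to the receptor, had lower values, and Cd8a passed the test. Cd8a (chr6:71373427-71379173, plus strand) was at 441, 370, 554 and 336 CPM in LKB1-deficient replicates 1 to 4, against 725, 672, 765 and 721 CPM in control replicates 1 to 4. All LKB1-deficient libraries were lower than all controls, as in 14.1% of all tested genes. The difference was 1.69-fold (log2 fold change -0.76 ± 0.17, adjusted p = 0.0156). It held with any single library left out, and without both LKB1-deficient replicates 2 and 4 its log2 fold change was -0.53 (adjusted p = 0.11).

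Cd8b1, the beta chain, lies 35933 bases upstream of Cd8a on the same strand (chr6:71322788-71337494). It was at 447, 405, 478 and 285 CPM in LKB1-deficient replicates 1 to 4, against 585, 492, 578 and 607 CPM in control replicates 1 to 4. The groups did not overlap here either, though LKB1-deficient replicate 3 came close to control replicate 2. The log2 fold change of -0.48 ± 0.18 missed the threshold (adjusted p = 0.0709), and it passed with DESeq2 (adjusted p = 0.0316), with total count scaling (adjusted p = 0.0479) and without LKB1-deficient replicate 3 (adjusted p = 0.0446).

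The log2 ratio of Cd8b1 to Cd8a was 0.02, 0.13, -0.21 and -0.24 in LKB1-deficient replicates 1 to 4, against -0.31, -0.45, -0.40 and -0.25 in control replicates 1 to 4. Every LKB1-deficient value lay above every control value, narrowly so for LKB1-deficient replicate 4. The mean difference of 0.28 was at the smallest p that the 70 regroupings allow and did not pass after adjustment (exact permutation p = 0.0286, adjusted p = 0.0857). Without LKB1-deficient replicate 1 the adjusted p was 0.0429, at a difference of 0.25.

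The first kinases of the pathway changed less than the spread allowed to be called. Lck (chr4:129548344-129573641, minus strand), the SRC family kinase bound to CD8, was at 429, 342, 497 and 340 CPM in LKB1-deficient replicates 1 to 4, against 501, 424, 528 and 553 CPM in control replicates 1 to 4. LKB1-deficient replicates 1 and 3 lay within the control range and replicates 2 and 4 below it. The log2 fold change was -0.32 ± 0.17 (adjusted p = 0.183).

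Zap70 (chr1:36761798-36782818, plus strand), the SYK family kinase that docks on phosphorylated CD3 tails, had 113, 82.5, 129 and 86 CPM in LKB1-deficient replicates 1 to 4, against 145, 121, 158 and 134 CPM in control replicates 1 to 4. LKB1-deficient replicate 3 lay above control replicate 2, and the other 3 LKB1-deficient libraries lay below all controls. The log2 fold change was -0.44 ± 0.17 (adjusted p = 0.0805; 0.0284 without LKB1-deficient replicate 3). The log2 ratio of Zap70 to Lck averaged -1.97 ± 0.06 in LKB1-deficient and -1.85 ± 0.13 in control libraries, a difference of -0.13 (exact permutation p = 0.114, adjusted p = 0.114).

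Lat, the membrane adaptor that ZAP70 phosphorylates, was the only one of the 3 downstream genes that fell. It lies at chr7:126363824-126369570 on the minus strand. It was at 372, 258, 361 and 261 CPM in LKB1-deficient replicates 1 to 4, against 471, 411, 492 and 489 CPM in control replicates 1 to 4. No LKB1-deficient library reached the lowest control. The difference was 1.49-fold (log2 fold change -0.57 ± 0.17, adjusted p = 0.0349), the weakest of the 4 calls. The call was lost on leaving out LKB1-deficient replicate 2 (adjusted p = 0.091) or 4 (adjusted p = 0.0949), both of them (log2 fold change -0.34, adjusted p = 0.22), or control replicate 1 (adjusted p = 0.0633), 3 (adjusted p = 0.0923) or 4 (adjusted p = 0.0816), and when each library's trend on transcript length was removed (adjusted p = 0.055).

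Cd5 (chr19:10717116-10739002, minus strand), a receptor that restrains TCR signals and whose level in mouse T cells is known to follow signal strength, had 141, 116, 112 and 124 CPM in LKB1-deficient replicates 1 to 4, against 178, 156, 134 and 130 CPM in control replicates 1 to 4. LKB1-deficient replicate 1 lay above control replicates 3 and 4. The log2 fold change of -0.28 ± 0.14 did not pass (adjusted p = 0.167), nor did it in any of the 21 alternatives.

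**Figure D3:**
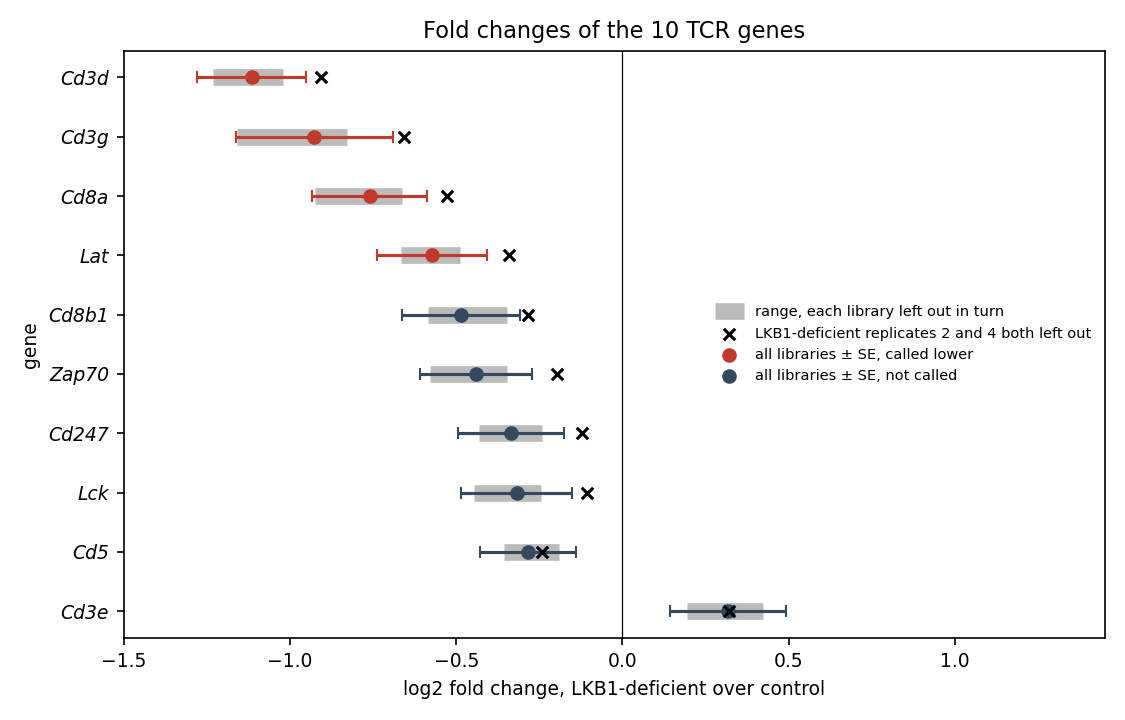
Log2 fold changes of LKB1-deficient over control cells with approximate SE (horizontal axis); grey bars give the range when each library is left out in turn, and crosses the value without both LKB1-deficient replicates 2 and 4. All genes but Cd3e lie below 0 in each of these settings, with Cd3d lowest at -1.12 and Cd3e at 0.32.

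The LKB1-deficient libraries were not alike in these genes. Replicates 2 and 4 were the lowest pair of the 4 in 8 of the 10 genes, the exceptions being Cd3e and Cd5, against 29.3% of all tested genes. The same libraries had the highest marker sums of mast cells and basophils, 42.3 and 33.2 CPM, against 15.2 and 15 CPM in LKB1-deficient replicates 1 and 3 and at most 12.3 CPM in control libraries; the part of this in the results was not tested. Without both, 1 of the 10 genes fell, Cd3d (log2 fold change -0.91, adjusted p = 0.0372), and the median of the 10 log2 fold changes was -0.26. In the EU libraries alone Cd3d, Cd8a and Lat fell, with log2 fold changes of -1.13, -0.78 and -0.66. The ET libraries are replicate 1 of each group, which allows no test; there Cd3d was at 400 CPM in the LKB1-deficient and 848 CPM in the control library.

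The tested gene whose profile over the 8 libraries was closest is given for 9 of the 10 genes, as the one with the smallest root mean square difference of mean-centred log2 CPM, among 9916 genes with names. For Cd3d it was Itm2b (0.0839), for Cd3g Klhl6 (0.103), for Lat Gnb2l1 (0.0346) and for Cd8b1 Dusp19 (0.0627). For Cd3e it was Tada3 (0.0893), for Cd247 Gnb2 (0.0364), for Lck Ndufa9 (0.0444), for Zap70 Psap (0.0634) and for Cd5 Slc16a10 (0.0637). None of the 10 had another of the 10 as its closest gene. The nearest of the set ranked between 42 (for Zap70) and 195 (for Cd247) of the 9916 genes. The exceptions were Cd5 (rank 2619) and Cd3e (rank 4324). Within the set, Zap70 and Lat were the closest pair (0.106), and the nearest of the set to Cd3e was Cd5, at 0.398.

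The other genes, of the pathway and of possible regulators of the Cd3, Cd8 and Cd5 genes, did not share one direction. Of 130 listed, 119 were tested, 25 rose (21%) and 15 fell (12.6%), against 12.4% and 10.1% of all tested genes. Their median log2 fold change was 0.01. The regulators made up 8 of the 25 that rose and 0 of the 15 that fell. With total count scaling, which moved the median of all genes to -0.16, 17 rose and 20 fell, and with upper quartile scaling 20 rose and 19 fell. The count of 40 became 20 when LKB1-deficient replicate 2 was left out, 18 for LKB1-deficient replicate 4, 8 for both of these and 19 for control replicate 3. Of the 32 named by rule, 15 kept their call with any single library left out (Braf, Canx, Dok1, Fli1, Gata3, Lax1, Nedd4, Pdpk1, Plcg2, Runx1, Runx3, Sit1, Slamf6, Syk and Txk) and 17 did not. Leaving out LKB1-deficient replicate 1, 2, 3 or 4 cost 1, 14, 3 and 16 of these calls in that order, and leaving out control replicate 1, 2, 3 or 4 cost 9, 5, 15 and 8. With total count scaling 6 were lost (Hras, Nras, Ptpn2, Sh2d1a, Themis and Wipf1). Of the 32, 7 kept their call in each alternative in which they were tested: Syk, Plcg2, Dok1, Sit1, Gata3, Runx1 and Runx3.

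**Figure D4:**
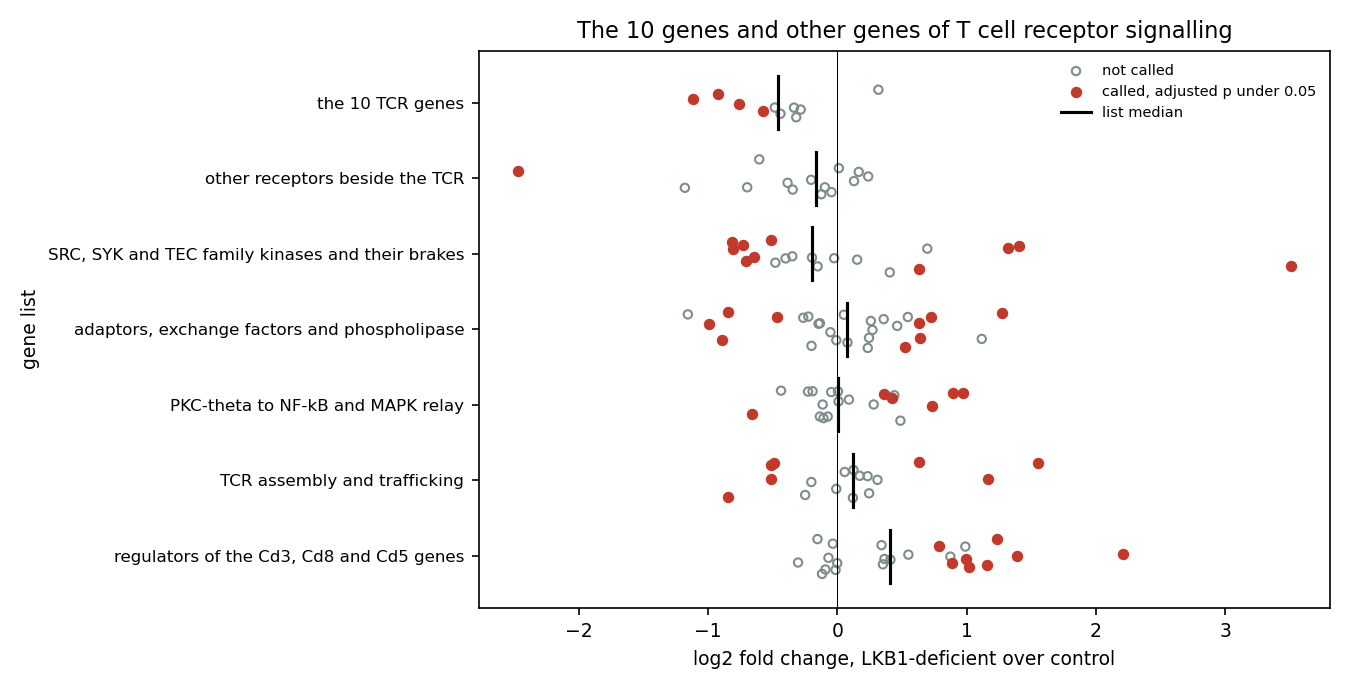
Log2 fold changes of LKB1-deficient over control cells (horizontal axis) for the 10 genes and for 6 lists of other genes. These lists cover TCR signalling and possible regulators of the Cd3, Cd8 and Cd5 genes. Filled points passed an adjusted p of 0.05 and black bars give the list median. The 10 genes have a median of -0.46, and the lists have medians from -0.20 to 0.41.

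Among SRC, SYK and TEC family kinases and their brakes, 4 of 19 rose and 6 fell. Syk, the sister kinase of Zap70 that B cells and mast cells also use, was near the limit of detection, with 1.97, 3.50, 2.68 and 3.77 CPM in LKB1-deficient replicates 1 to 4, against 0.270, 0.406, 0.227 and 0 CPM in control replicates 1 to 4 (7 to 17 counts per LKB1-deficient library and 0 to 5 per control library; adjusted p = 0.00341). Its values did not overlap between groups. The mast cell and basophil markers summed to 15.2, 42.3, 15 and 33.2 CPM in LKB1-deficient replicates 1 to 4, against 9.22 to 12.3 CPM in control libraries, so replicates 2 and 4 were the highest in both. B cell markers summed to 4.95 to 10.7 CPM in LKB1-deficient and 7.39 to 13.1 CPM in control libraries. The part of these cells in the difference of Syk was not tested. The TEC family kinase Tec rose (log2 fold change 1.41 ± 0.34, adjusted p = 0.0188) while its relative Txk fell (-0.71 ± 0.15, adjusted p = 0.0136). Of the brakes, the ubiquitin ligase Cbl (1.32 ± 0.35, adjusted p = 0.0265) and the phosphatase Ptpn2 (0.64 ± 0.18, adjusted p = 0.0317) rose on the log2 scale. Dok1, an adaptor that restrains RAS signalling, fell and was at 29.5, 24.8, 28.8 and 26.4 CPM in LKB1-deficient libraries, against 43.9, 48.7, 50.5 and 49.6 CPM in control libraries (log2 fold change -0.81 ± 0.12, adjusted p = 0.00372). The phosphatase Ptpn6 (SHP-1; -0.64 ± 0.17, adjusted p = 0.0269) and Sla (SLAP; -0.51 ± 0.15, adjusted p = 0.0339), an adaptor that promotes turnover of TCR chains, fell as well.

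Among adaptors, exchange factors and phospholipases, 5 of 27 rose and 4 fell. Plcg2, the phospholipase C of B cells, was at 11, 9.91, 9.92 and 13.5 CPM in LKB1-deficient libraries, against 4.31, 4.47, 4.77 and 4.68 CPM in control libraries (log2 fold change 1.27 ± 0.17, adjusted p = 0.00341). Themis, which sets the threshold of TCR signals in thymocytes, Sh2d1a, encoding SAP, and Wipf1, a partner of the actin regulator WASP, rose by 0.72 ± 0.19, 0.64 ± 0.17 and 0.52 ± 0.12 on the log2 scale (adjusted p = 0.0273, 0.0263 and 0.0167). The transmembrane adaptors Lax1 and Sit1, both known as negative regulators, fell. Lax1 was at 18.8, 18.9, 21.6 and 16.4 CPM in LKB1-deficient libraries, against 48.3, 35.9, 35.1 and 32.3 CPM in control libraries (adjusted p = 0.00525), and Sit1 fell by 0.89 ± 0.16 on the log2 scale (adjusted p = 0.00746). Skap1, which links the TCR to integrins, and the adaptor Sh2b3 fell too (log2 fold changes -0.85 ± 0.21 and -0.47 ± 0.14, adjusted p = 0.0219 and 0.0398).

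In the relay from PKC-theta to NF-kB and MAP kinases 5 of 20 rose, among them Braf (log2 fold change 0.89 ± 0.18, adjusted p = 0.00999) and Pdpk1 (0.73 ± 0.17, adjusted p = 0.016), and 1 fell. The 20 include Pdk1, a pyruvate dehydrogenase kinase outside this relay, which did not pass. The smaller rises of Hras and Nras (0.36 ± 0.11 and 0.42 ± 0.13, adjusted p = 0.0366 and 0.0389) were lost in 17 and 15 of 21 alternatives, including when any single library was left out for Hras. Of other receptors beside the TCR 1 of 14 passed, Slamf6, which was at 4.5, 2.91, 2.52 and 1.08 CPM in LKB1-deficient libraries, against 29.3, 15.8, 7.04 and 8.44 CPM in control libraries (adjusted p = 0.0132).

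For genes of TCR assembly and trafficking, 3 of 17 rose and 4 fell. The endoplasmic reticulum chaperones Canx and Calr, which fold TCR and CD3 chains among many proteins, rose, by 0.63 ± 0.14 and 1.55 ± 0.36 on the log2 scale (adjusted p = 0.0136 and 0.0164). Calr was at 646, 2023, 610 and 1444 CPM in LKB1-deficient replicates 1 to 4, against 427, 450, 380 and 356 CPM in control replicates 1 to 4, so replicates 2 and 4 stood apart in it too, here as the highest. Its call was lost without LKB1-deficient replicate 4. The ubiquitin ligase Nedd4 rose (log2 fold change 1.17 ± 0.26, adjusted p = 0.0137). Ift20 and Rab11a, which carry recycling receptors to the synapse, fell (-0.49 ± 0.13 and -0.52 ± 0.15, adjusted p = 0.0232 and 0.0359), as did the tetraspanin Cd81 (-0.85 ± 0.23, adjusted p = 0.0262).

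Transcription factors and cofactors chosen for possible control of the Cd3, Cd8 and Cd5 genes were the one list in which no gene fell. Not all 23 are established regulators of these genes. Of the 23, 8 rose (34.8%, against 12.4% of all tested genes), and the median log2 fold change was 0.41. Runx3, which is needed for Cd8 expression in mouse cytotoxic T cells, was at 336, 388, 396 and 459 CPM in LKB1-deficient replicates 1 to 4, against 182, 182, 135 and 173 CPM in control replicates 1 to 4 (log2 fold change 1.23 ± 0.15, adjusted p = 0.00331). The groups did not overlap in Runx3 or in Cd8a, and the order of the groups was opposite. Runx1 was at 27.6, 33.5, 17 and 31.5 CPM in LKB1-deficient libraries, against 8.89, 10.8, 10.5 and 11.2 CPM in control libraries (log2 fold change 1.39 ± 0.21, adjusted p = 0.00404). Gata3, a zinc finger factor of T cell development, was at 292, 447, 289 and 443 CPM, against 49.0, 63.9, 95.1 and 111 CPM in control libraries (log2 fold change 2.21 ± 0.28, adjusted p = 0.00331). Fli1, an ETS factor, rose by 0.99 ± 0.19 on the log2 scale (adjusted p = 0.00863), and this call was lost without both LKB1-deficient replicates 2 and 4 (adjusted p = 0.0572).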

How the data were processed

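Each library has its own deposited table of unnormalized counts by gene symbol. STAR and mm10 are named in the submitters' processing notes; the sources used here do not give the counting program, its strand setting or its annotation. Per the labels' protocols, barcoded oligo-dT primers gave strand-specific 3' libraries that were pooled before PCR; molecular identifiers are not mentioned, so counts can include PCR copies. The 5 closing lines of each table that name no gene were left out; counts outside genes came to 12.1% to 17.5% of gene, ambiguous and outside counts. Libraries of a group differed by more than the noise of independent counts, with a chi-square of at least 11.6 per degree of freedom. PCR copies can raise this value.

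After filterByExpr (at least 10 counts, at least 15 in total), genes were scaled by TMM and compared in R 4.3.3 with the robust quasi-likelihood test of edgeR 4.0.16, without covariates; CPM uses TMM-scaled library sizes, and log2 CPM for profiles a prior count of 2. SE is the absolute log2 fold change over the root of the F statistic. Ratios used raw counts with 0.5 added. The code was tested on simulated counts. Lengths and coordinates came from GENCODE vM21 (96.5% of tested genes matched) and promoters from RefSeq GRCm38.p6. The length of a gene was that of its longest annotated transcript, which has 1 exon for Lat and 2 exons for Cd3g. Such a length need not be that of the main transcript.

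The genes and lists were chosen with earlier results of these data known. Named were all 10 genes, Stk11, the genes closest in profile and, of each list, up to 4 called genes per direction, taken by p; some are not reported here.

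Alternatives were upper quartile and total count scaling, DESeq2 1.42.0, limma-voom 3.58.1, unfiltered genes, genes averaging 10 CPM or more, a replicate block, a term for the identifier prefix, each library left out, LKB1-deficient replicates 2 and 4 left out, EU libraries alone, thinning to 3454388 counts, removal of the transcript length trend (lowess span 0.3) and an adjusted p of 0.01.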

Additional observations from a re-analysis of the deposited data

How the results depend on the processing

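The count of 4 of the 10 genes lay between 2 and 6 when each library was left out, and was 1 without both LKB1-deficient replicates 2 and 4 and 1 at an adjusted p of 0.01; that of 2337 over all genes lay between 1011 and 2825, and was 260 and 437; that of 40 in the wider lists lay between 18 and 42, and was 8 and 10. Under the 21 alternatives, of which the adjusted p of 0.01 leaves fold changes as they are, none of the 10 log2 fold changes changed sign. Stk11 did: its log2 fold change of -0.03 lay between -0.22 and 0.08 (0.0791 without control replicate 1) when each library was left out, and was 0.18 without both LKB1-deficient replicates 2 and 4 and 0.10 in EU libraries alone. The difference in the Cd8b1 to Cd8a log2 ratio lay between 0.21 and 0.33, that of Cd247 to Cd3e between -0.83 and -0.52 and that of Zap70 to Lck between -0.19 and -0.09 with each library left out.

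Same-numbered libraries deviated from their group means with correlations of -0.25, 0.29, 0.30 and -0.09. Differently numbered libraries gave correlations from -0.37 to 0.34. With so few libraries per group these values cannot tell whether the numbers pair the libraries. With the replicate block 1902 genes were called over all genes, 4 of the 10 and 35 in the wider lists; the paired exact test of the ratios, which cannot go below p = 0.125, gave log2 differences of 0.28, -0.65 and -0.13. Over all genes 1286 rose and 1051 fell; the split was 829 and 1576 with total count scaling and 1023 and 1446 with upper quartile scaling. The lower depth of the LKB1-deficient libraries limits low genes such as Syk more than the 10 genes.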

Other observations

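Of the wider lists, 9 genes found in the tables were under the count filter. Plcg1, the phospholipase C on which LAT signals in T cells, had 2 to 14 counts per library, and Cd28, the receptor of the second stimulating antibody, had 0 to 9. Ptprcap, which binds the phosphatase CD45, and Mal had no count in any library. Cd4, Trat1, Ptprj, Gab2 and Rnf128 reached at most 3.41 CPM. What sets these low values was not tested.

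In 92 groups of 4 libraries, covering each of the 10 genes, Stk11, the genes named from the wider lists and the 3 tested ratios in each group, no library lay far enough from the others to pass Dixon's 95% critical value. The test sets the most extreme library against its nearest neighbour. A pair that deviates together, such as LKB1-deficient replicates 2 and 4, can therefore go unflagged.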
